A study of Mus musculus with 6 samples.

Results

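Yap1, Wwtr1, Tead1, Tead2, Tead3, Tead4, Lats1, Lats2, Wwc1 and Vgll4 are genes of the Hippo pathway, among them the Lats kinases and DNA-binding factors. Their mRNA is described here in mouse back skin keratinocytes with and without skin nerves. The 10 genes were chosen by symbol among the 24982 entries of the raw count matrix, and each symbol matched 1 entry. They were proposed with their values on the denervated and the normal side of these same libraries known. Their differences between the sides are therefore given as a description, and the adjusted p-values beside them do not support the choice.

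RNA came from sorted cells of 3 mice, numbered 890, 892 and 899, that carried Lgr6-EGFP-Ires-CreERT2 and R26loxP-stop-loxP-tdTom. Lgr6, a receptor for R-spondins, drives both EGFP and the inducible Cre, so that tamoxifen turns on the red tdTomato reporter in Lgr6-expressing cells and in all cells that descend from them. Every mouse received 20 µg of tamoxifen on postnatal day 42, ketamine and xylazine for surgery and meloxicam after it. The skin nerves were dissected out on the left (denervated) side and kept on the right (normal) side of the same animal, and cells from both sides were collected 4 weeks later. Cells were sorted for the label and for CD49f (Itga6), an integrin of basal keratinocytes, and the series describes them as positive for GFP as well. The design thus gave 3 pairs of libraries and no animal without surgery. No sham dissection of the right side is described, so loss of nerves, dissection and body side cannot be told apart. In such bulk samples, fewer cells of a type and less RNA per cell cannot be told apart either.

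In the Hippo pathway, the kinases Lats1 and Lats2 phosphorylate the coactivators YAP (Yap1) and TAZ (Wwtr1), which are then held in the cytoplasm or degraded. The scaffold KIBRA (Wwc1) acts upstream and favours Lats activity. Unphosphorylated YAP and TAZ enter the nucleus, where they bind DNA through the Tead transcription factors, while Vgll4 competes with them for the Tead proteins. In the epidermis, YAP and TAZ are best known in basal cells, where they favour proliferation and wound repair. Since much of this control acts on phosphorylation and location, mRNA levels show only how much transcript there was.

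The libraries held 9610071 to 26167593 counts, and each animal's total was lower after denervation. In CPM (counts scaled by the library total), 3 counts were 0.115 to 0.312 depending on the library. Summed basal keratinocyte markers (Krt5, Krt14, Itga6, Itgb4, Col17a1 and Trp63) were at 43035 ± 566 CPM on the normal and 43048 ± 2942 CPM on the denervated side (SD, n = 3), and Lgr6 was present at 76.2 to 107 CPM. Suprabasal markers (Krt1, Krt10, Ivl and Lor) summed to 8394 ± 151 and 7152 ± 1095 CPM and were lower after denervation in 2 of 3 animals. Among markers of other skin cells, Col1a1 (at most 1.79 CPM), Rgs5 (0.227), Sox10 (0.0483) and Ptprc (2.57) were low and Cdh5 was at 0, while others were not. Thy1 was at 88.0 to 152, Cd74 at 42.7 to 73.9, Cspg4 at 23.5 to 41.5 and the Langerhans cell gene Cd207 at 11.4 to 21.3 CPM. Summed myeloid and Langerhans markers came to 81.6 ± 20.5 and 91.3 ± 12.1 CPM, T cell markers to 117 ± 13.6 and 127 ± 31.6 CPM and fibroblast markers to 117 ± 13.0 and 122 ± 31.6 CPM on the normal and denervated side. The last 2 sums share Thy1, which led both, and all 3 pairs of sums overlapped. Summed Schwann cell markers were higher after denervation in 3 of 3 animals (99.2 ± 4.68 against 123 ± 5.75 CPM), led by Mbp, and pericyte and smooth muscle markers were lower in 3 of 3 (168 ± 5.12 against 135 ± 22.4 CPM), led by Notch3. An exact two-sided permutation test gave p = 0.1 for both sums, the smallest p that 3 against 3 libraries allow. The part of these marker changes in the values below was not tested. The denervated library of animal 890 stood apart on the first principal component, at −37.6 where the next lowest library was at −9.73. Both libraries of animal 899 lay at the other end, at 24.5 (normal) and 21.1 (denervated). Values without animal 890 are given beside the results that rest on it.

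Levels were compared between genes in TPM, which scales reads by transcript length as well as by library. Yap1 was the most abundant of the 10 at a mean of 166 TPM over the 6 libraries, above 95.4% of the genes detected. It was followed by Wwtr1 at 124, Vgll4 at 80.7, Tead3 at 60.0, Lats1 at 40.4, Wwc1 at 34.0, Tead1 at 20.5, Lats2 at 17.2, Tead4 at 6.67 and Tead2 at 0.303 TPM. In this order each gene lay above the next in 6 of 6 libraries. Across libraries the ranges of neighbours nevertheless overlapped for Lats1 (36.1 to 45.7) and Wwc1 (23.9 to 39.2), for Wwc1 and Tead1 (16.3 to 25.3), and for Tead1 and Lats2 (15.5 to 18.9 TPM). These ranges hold both sides, so the order of those neighbours rests on the comparison within libraries.

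**Figure D1:**
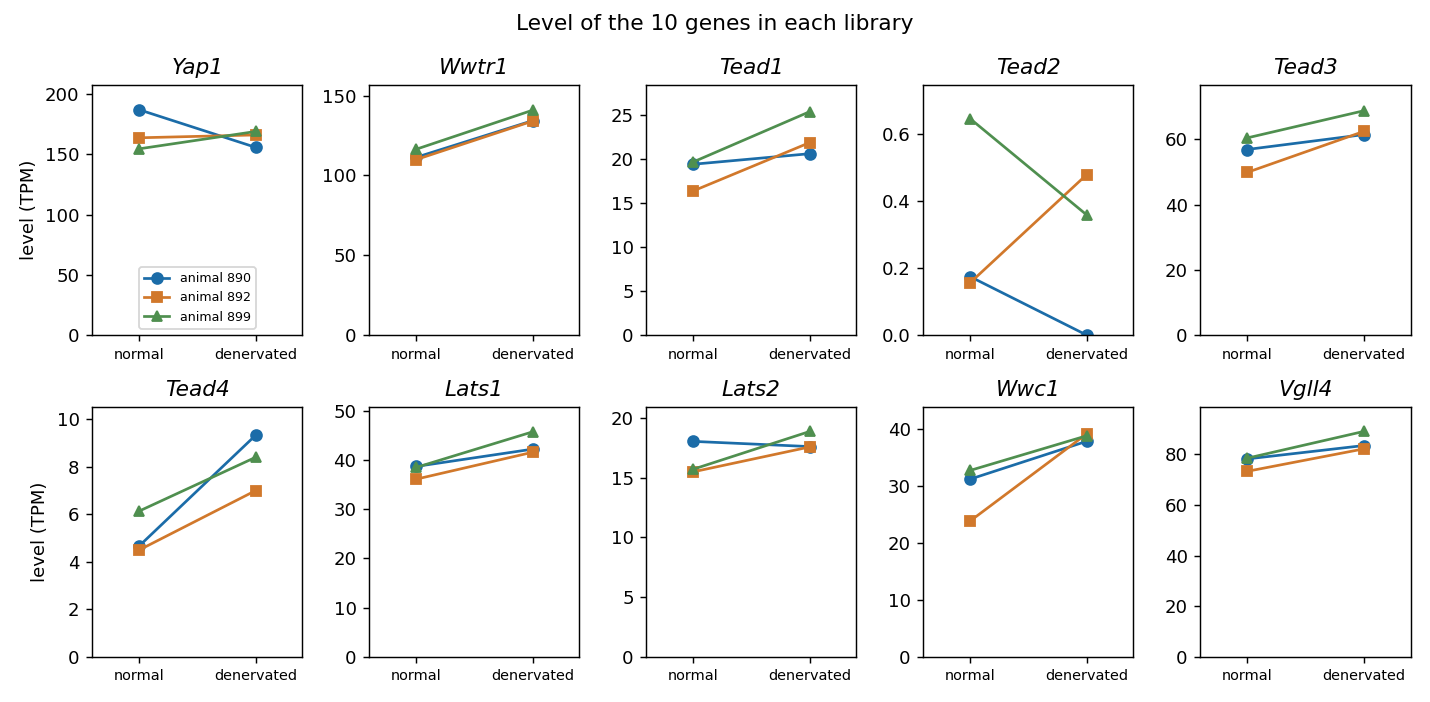
Level of each gene in TPM (vertical axis, starting at 0, scaled separately for each gene) on the normal and denervated side; points are libraries and lines join the 2 libraries of 1 animal. Yap1 had the highest levels, from 155 to 187 TPM, Tead2 reached at most 0.647 TPM, and the lines of Wwtr1, Tead1, Tead3, Tead4, Lats1, Wwc1 and Vgll4 all run upward from normal to denervated.

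The coactivator genes lie on mm10 at chr9:7931999-8004596 (Yap1) and chr3:57455649-57575910 (Wwtr1), both on the minus strand (GENCODE vM21). Their promoters are shown because Tead factors are the DNA-binding partners of both proteins, and that of Wwc1 is shown as an example without the motif from a gene that was higher after denervation. Each line gives the 250 bases before the RefSeq start on GRCm38.p6, read 5′ to 3′ on the minus strand, with the Tead core motif GGAATG in capitals. The regions are chr9:8004597-8004846, chr3:57575911-57576160 and chr11:35980528-35980777.
Yap1: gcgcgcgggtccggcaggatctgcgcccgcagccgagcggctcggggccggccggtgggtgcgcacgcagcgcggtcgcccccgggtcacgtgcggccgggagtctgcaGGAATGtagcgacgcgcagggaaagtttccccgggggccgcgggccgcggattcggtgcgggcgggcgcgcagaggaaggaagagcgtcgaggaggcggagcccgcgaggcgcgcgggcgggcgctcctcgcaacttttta
Wwtr1: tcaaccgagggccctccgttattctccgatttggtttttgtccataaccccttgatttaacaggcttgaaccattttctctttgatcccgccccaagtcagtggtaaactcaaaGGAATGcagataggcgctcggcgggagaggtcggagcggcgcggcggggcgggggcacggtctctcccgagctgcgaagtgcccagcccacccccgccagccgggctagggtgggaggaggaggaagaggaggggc
Wwc1: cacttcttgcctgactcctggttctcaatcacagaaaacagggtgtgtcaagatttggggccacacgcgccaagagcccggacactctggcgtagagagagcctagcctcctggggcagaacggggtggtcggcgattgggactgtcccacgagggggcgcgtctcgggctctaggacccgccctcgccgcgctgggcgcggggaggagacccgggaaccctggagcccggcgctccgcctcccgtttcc
The motif begins 141 bases before the start of Yap1 and 136 bases before the first listed start of Wwtr1, and it does not occur in the Wwc1 window. G and C made up 76.4%, 61.6% and 67.2% of the 3 windows. RefSeq windows were matched for 8 of the 10 genes, all but Tead1 and Tead4, and several genes had more than 1 start. On either strand GGAATG occurred in a window of 4 of the 8 (Yap1, Wwtr1, Tead3 and Vgll4), in 6 of their 12 windows, against 12.6% of the 32851 promoter windows in the table. The AP-1 motif TGANTCA, searched on both strands, was in 0 of the 12 and in 6.75% of all windows, so no match of it overlapped GGAATG. A match is a run of letters and not a bound site, and windows of 1 gene can overlap each other. The 2 windows of Wwtr1 do, and both hold the same match. The 12.6% counts windows, and no share of genes was taken.

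Of the 2 coactivators, Wwtr1 rose on the denervated side and Yap1 did not pass the test. Wwtr1, which encodes TAZ, was at 265, 276 and 288 CPM on the normal side of animals 890, 892 and 899 and at 345, 341 and 334 CPM on their denervated side (CPM here and below scaled by TMM). All 3 denervated libraries lay above all 3 normal ones, and the change was 1.23-fold (log2 fold change 0.30 ± 0.08 SE, adjusted p = 0.0459 by edgeR's quasi-likelihood test with the animal as block). Yap1 was at 406, 372 and 346 CPM on the normal and 362, 387 and 366 CPM on the denervated side. These ranges overlapped, and the difference had opposite signs among animals, at −0.17, 0.06 and 0.08 on the log2 scale. The fitted log2 fold change of Yap1 was −0.01 ± 0.08 (adjusted p = 0.971, edgeR). Without animal 890 the log2 fold change of Wwtr1 was 0.26 with an adjusted p of 0.171, and without animal 892 it was 0.31 with an adjusted p of 0.199 (edgeR). That of Yap1 without animal 890 was 0.07.

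The balance between the 2 coactivators is given as a description. It was not tested, and it largely restates the rise of Wwtr1 beside a Yap1 that was not called. The ratio of Wwtr1 to Yap1 counts was 0.653, 0.742 and 0.833 in the normal libraries of animals 890, 892 and 899 and 0.953, 0.881 and 0.911 in the denervated ones. This ratio does not depend on how libraries are scaled. It was higher after denervation in 3 of 3 animals and its ranges did not overlap, with or without animal 890. For single genes, the 3 denervated libraries lay above the 3 normal ones in 9.76% of all tested genes. Other pairs of genes were not counted. Per length, in TPM, the ratio averaged 0.673 ± 0.0790 and 0.834 ± 0.0276 (SD, n = 3), so Yap1 stayed the more abundant transcript in every library. The sum of both coactivators was 281 ± 15.1 TPM on the normal and 300.0 ± 9.87 TPM on the denervated side. That sum was higher after denervation in 2 of 3 animals and its ranges overlapped.

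The 4 Tead genes, which encode DNA-binding factors of 1 family, summed to 81.1, 70.8 and 86.8 TPM on the normal side and 91.3, 91.7 and 103 TPM on the denervated side. The sums did not overlap, at 79.6 ± 8.10 against 95.3 ± 6.53 TPM. For single genes in TPM, the denervated libraries lay above all normal ones in 7.35% of all tested genes. In TPM, coactivator mRNA per Tead mRNA was 3.55 ± 0.387 on the normal side and 3.15 ± 0.131 after denervation. It was lower after denervation in each animal, although its ranges overlapped. Vgll4 mRNA per Tead mRNA was 0.967 ± 0.0655 and 0.891 ± 0.0242, likewise lower in each animal with overlapping ranges. Both ratios divide by the same Tead sum. Lats1 and Lats2 together came to 54.1 ± 2.57 TPM on the normal and 61.2 ± 2.97 TPM on the denervated side. These sums did not overlap, although the TPM ranges of Lats2 alone did.

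**Figure D2:**
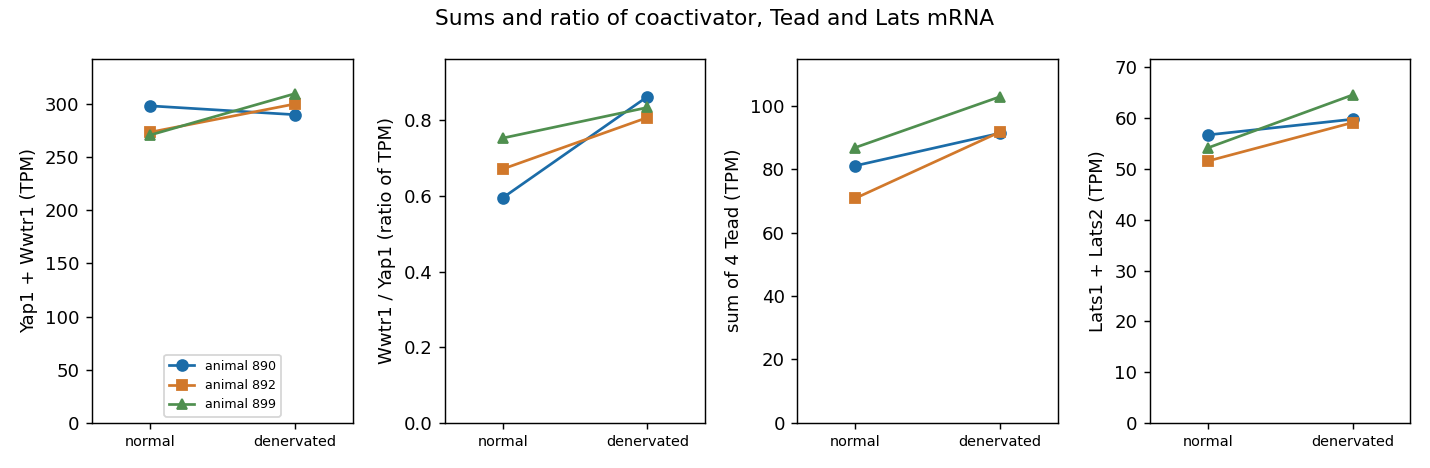
Summed TPM of the coactivators, of the 4 Tead genes and of the 2 Lats genes, and the Wwtr1 to Yap1 ratio, on the normal and denervated side; points are libraries, lines join the libraries of 1 animal and each axis starts at 0. The Tead sums span 70.8 to 86.8 TPM on the normal and 91.3 to 103 TPM on the denervated side, and the ratio of Wwtr1 to Yap1 is higher on the denervated side in each animal.

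Tead3 supplied most of the Tead mRNA per length in every library. Its share of the summed Tead TPM was 70.0% ± 0.401 on the normal side and 67.4% ± 0.610 after denervation (SD, n = 3), with ranges of 69.6% to 70.4% and 66.8% to 68.1%. Tead1 held 23.2% ± 0.655 and 23.7% ± 1.07, which differed by less than the spread between libraries. Tead4 held 6.38% ± 0.660 on the normal side and 8.67% ± 1.36 on the denervated side. Its ranges, 5.74% to 7.06% and 7.63% to 10.2%, did not overlap, and the highest value was that of the denervated library of animal 890. Tead2 held at most 0.746% in any library. The shares of 1 library sum to the whole, so a higher share of Tead4 lowers the others.

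The order of Tead1 and Tead3 depended on whether length was taken into account. By raw counts Tead1 was the larger, at 49.8% to 52.6% of Tead counts against 41.4% to 45.7% for Tead3. The Tead3 to Tead1 ratio was 0.787 to 0.913 in counts and 2.71 to 3.08 in TPM. The deposited transcript lengths were 9.52 to 9.58 kb for Tead1 and 2.45 to 2.47 kb for Tead3, so a Tead1 transcript yields more reads. The TPM order therefore rests on these lengths, which were estimated by the authors' quantification.

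**Figure D3:**
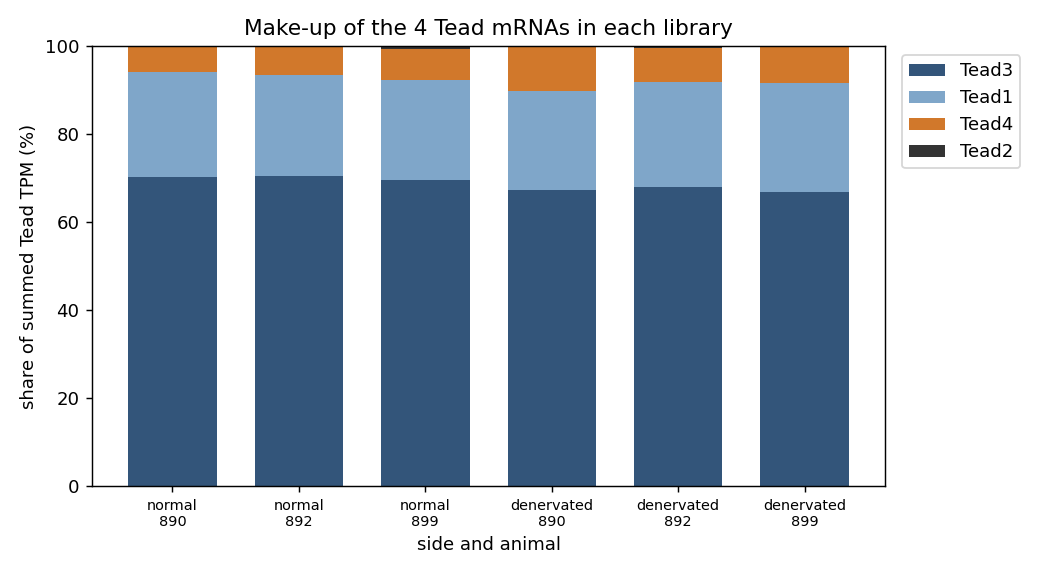
Stacked shares of Tead1, Tead2, Tead3 and Tead4 in their summed TPM (vertical axis, percent) in each of the 6 libraries, labelled by side and animal. Tead3 takes 66.8% to 70.4% of each bar, and the Tead4 segment is larger in the 3 denervated bars (7.63% to 10.2%) than in the 3 normal bars (5.74% to 7.06%).

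Between the sides, Tead1 and Tead4 rose and Tead3 was higher without passing the test. Tead4 (chr6:128224288-128300823, minus strand) was at 7.78, 7.53 and 10.7 CPM on the normal and 17.8, 12.7 and 14.6 CPM on the denervated side. All denervated libraries lay above the normal ones. Its change of 1.75-fold (log2 fold change 0.80 ± 0.17 SE, adjusted p = 0.0236, edgeR) was the largest among the 9 tested members. It ranged from 1.19 on the log2 scale in animal 890 to 0.46 in animal 899. Without animal 890 the log2 fold change was 0.61 with an adjusted p of 0.0572 (edgeR).

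Tead1 (chr7:112679318-112906807, plus strand) was at 103, 89.1 and 106 CPM on the normal and 119, 121 and 134 CPM on the denervated side. The groups did not overlap, and Tead1 rose by 1.26-fold (log2 fold change 0.33 ± 0.08 SE, adjusted p = 0.0357, edgeR). Without animal 892 the adjusted p was 0.270 at a log2 fold change of 0.29, and without animal 890 it was 0.00343 at 0.39 (edgeR). Tead3 (chr17:28331671-28350817, minus strand) was at 87.0, 81.3 and 95.3 CPM on the normal and 99.7, 104 and 105 CPM on the denervated side. It was higher in 3 of 3 animals by a log2 fold change of 0.23 ± 0.08 and did not pass (adjusted p = 0.126, edgeR). Scaled by library totals instead of TMM, the Tead3 ranges overlapped. Tead2 (chr7:45215753-45233644, plus strand) had 8, 4 and 10 counts on the normal and 0, 8 and 5 counts on the denervated side. It was too low for the test, and its 0 in the denervated library of animal 890 allows up to 0.312 CPM by library total, for counting error only.

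Of the kinases and regulators, Wwc1 rose, while Lats1, Lats2 and Vgll4 were higher on the denervated side without passing the test. Wwc1 (chr11:35838400-35980527, minus strand), the KIBRA gene, was at 79.7, 65.8 and 87.3 CPM on the normal and 105, 107 and 97.8 CPM on the denervated side. The denervated libraries lay closer together than the normal ones and all lay above them. Its log2 fold change was 0.42 ± 0.10 (1.34-fold, adjusted p = 0.0307, edgeR), with 0.70 in animal 892 and 0.16 in animal 899. Without animal 892 the log2 fold change was 0.30 with an adjusted p of 0.259, and without animal 890 it was 0.44 with an adjusted p of 0.00102 (edgeR).

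Lats1 (chr10:7681214-7716460, plus strand) was at 146, 141 and 151 CPM on the normal and 170.3, 167 and 171 CPM on the denervated side. These values did not overlap and were close within each side, with a log2 fold change of 0.22 ± 0.07 (adjusted p = 0.124, edgeR). Lats2 (chr14:57689662-57758388, minus strand) was at 49.5, 42.4 and 41.0 CPM on the normal and 50.0, 49.5 and 52.7 CPM on the denervated side. Its log2 fold change was 0.20 ± 0.09 (adjusted p = 0.285, edgeR), with 0.01 in animal 890 and 0.36 in animal 899, and it was 0.12 without animal 899. In TPM its ranges overlapped. In the annotation Lats2 shares 42.4% of its exonic bases with Gm49361, a gene on the same strand that is not named in the count matrix, so how reads of the shared part were counted is uncertain. Lats1 exceeded Lats2 per length in every library, at a TPM ratio of 2.31 ± 0.154 on the normal side and 2.40 ± 0.0287 after denervation.

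Vgll4 (chr6:114860628-114969994, minus strand), the competitor of YAP and TAZ for Tead proteins, had the least spread between animals. It was at 122, 121 and 126 CPM on the normal and 138, 137 and 137 CPM on the denervated side. The groups did not overlap, but the difference was small and did not pass, with a log2 fold change of 0.16 ± 0.07 (1.11-fold, adjusted p = 0.277, edgeR). The SD between animals on the log2 scale was 0.0350 and 0.00592 for Vgll4 on the normal and denervated side, and 0.277 and 0.242 for Tead4, the most variable of the tested members.

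Over the 10 genes, 9 had enough counts for the test, which left out Tead2. Of these 4 (Wwtr1, Tead1, Tead4 and Wwc1) were called higher on the denervated side and 0 lower, where a call is a Benjamini-Hochberg adjusted p below 0.05 in edgeR. Over all 12310 tested genes 426 were called, or 3.46%, of which 355 (2.88%) were higher and 71 (0.577%) lower. Higher genes were 83.3% of these calls, and 59.3% (172 against 118) when libraries were scaled by their totals, where 1 of the 9 members (Tead4) was called. At an unadjusted p below 0.05 edgeR gave 6 members and 2246 of all tested genes (18.2%). DESeq2 called 3 of the 8 members it gave an adjusted p, all higher, and 489 of 6494 genes (7.53%, and 6.84% higher). Because the members were proposed with this contrast known, nothing is read from their share. Of the 9, 8 were higher in 3 of 3 animals, as were 19.3% of all tested genes. The 3 denervated libraries lay above the 3 normal ones for the same count of 8, with Yap1 the exception, and for 9.76% of all tested genes. In TPM and in CPM by library totals the count was 7 and 6, against 7.35% and 6.03% of all tested genes. The median log2 fold change was 0.23 over the 9 members and −0.02 over all tested genes, for which the middle of the distribution, from the 25% to the 75% quantile, ran from −0.17 to 0.12. Without the animal as block edgeR called 0 of the 9, with 7 at an unadjusted p below 0.05, as were 12.5% of all tested genes. Without animal 890 the calls were Tead1 and Wwc1, and without animal 892 only Tead4.

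**Figure D4:**
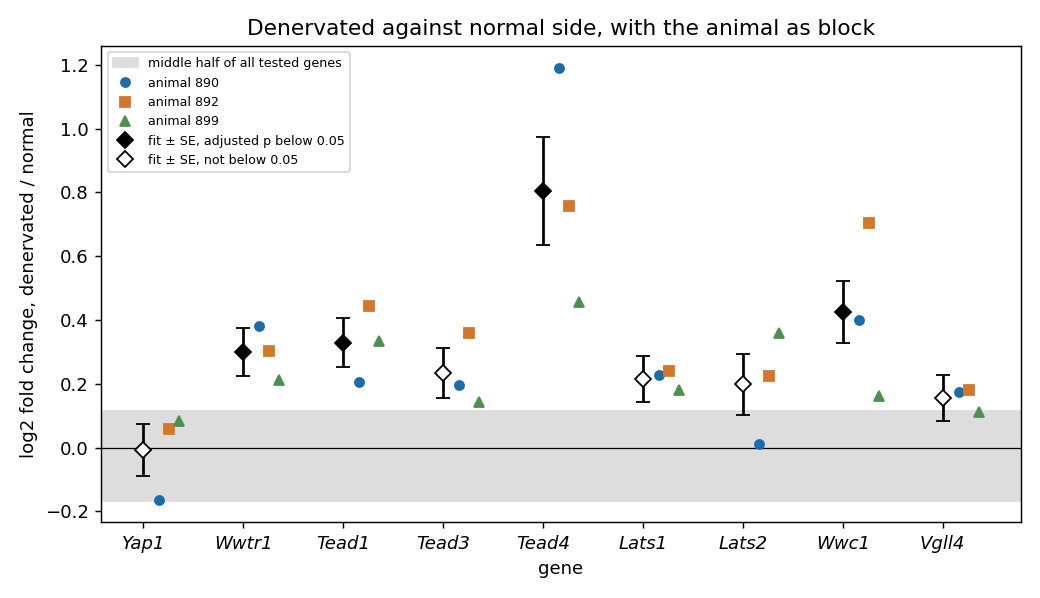
Log2 fold change, denervated over normal, of the 9 tested members: diamonds with bars are the fit and its SE (filled where the adjusted p was below 0.05), small symbols are the 3 animals, and the grey band holds the middle of all tested genes (−0.17 to 0.12). Yap1 lies near 0 with animals on both sides of it, and Tead4 lies highest with the widest spread among animals.

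The deposited table of the authors' own comparison gave the same order of sizes for the largest changes. In the authors' deposited table the log2 fold change was 0.73 for Tead4, with no adjusted p, 0.45 for Wwc1 (adjusted p = 0.00834) and 0.32 for Tead1 (adjusted p = 0.0282). The authors' deposited table listed Wwtr1 at 0.31 (adjusted p = 0.00443) and Yap1 at −0.01 (adjusted p = 0.983). Tead3, Lats1, Lats2 and Vgll4 stood in the authors' deposited table at 0.24, 0.22, 0.17 and 0.18, with adjusted p-values of 0.196, 0.116, 0.589 and 0.321. That table comes from the same 6 libraries and is no independent measurement.

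Among 67 other genes of the pathway, 64 were tested and 3 rose, with 0 called lower. At an unadjusted p below 0.05 edgeR gave 15 of the 64, beside 18.2% of all tested genes, and DESeq2 called 7 of 57 higher and 0 lower, beside 6.84% of all genes higher. The 3 were Rassf1 and Mpp5 of 22 upstream regulators and Strn3 of 9 genes of STRIPAK, a phosphatase complex that acts on the Mst kinases. Over all tested genes 2.88% were called higher and the median log2 fold change was −0.02, while the median log2 fold change of the 64 was 0.05. Rassf1, a scaffold that binds the Mst kinases, rose from 130 ± 1.18 to 172 ± 25.5 CPM (0.39 ± 0.09, adjusted p = 0.0268, edgeR). Mpp5, the Pals1 scaffold of the Crumbs polarity complex, rose from 148 ± 18.4 to 190.2 ± 11.8 CPM (0.36 ± 0.08, adjusted p = 0.0278, edgeR). Strn3, a striatin, rose from 158 ± 6.79 to 193 ± 17.0 CPM (0.29 ± 0.07, adjusted p = 0.0451, edgeR). Without animal 890 the adjusted p of Rassf1 was 0.0995 and that of Strn3 0.139, and without animal 892 that of Mpp5 was 0.115 and that of Strn3 0.182 (edgeR).

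The remaining lists, apart from the target genes, gave no call in edgeR with all animals and the filter on counts. In the kinase cassette (the Mst, Map4k and Tao kinases, Sav1, the Mob1 adaptors and relatives) 16 of 17 genes were tested and 0 called, with 4 at an unadjusted p below 0.05, where all tested genes gave 18.2%, and 0 by DESeq2. The lowest p-values there were those of Taok1 (log2 fold change 0.20 ± 0.07, adjusted p = 0.179) and Map4k4 (0.18 ± 0.07, adjusted p = 0.208), kinases upstream of Lats (edgeR). Of 13 genes for binding and turnover of YAP and TAZ, 0 were called. At an unadjusted p below 0.05 edgeR gave 3, beside 18.2% of all tested genes. DESeq2 called 3 higher, beside 6.84% of all genes higher. In edgeR 3 were called higher without animal 899, and 3 without the filter. In these settings 671 of 12614 and 692 of 17311 tested genes were called higher, and 7.74% and 5.7% were called either way. The lowest p-values were those of 2 14-3-3 proteins, which bind phosphorylated YAP. Sfn was at 1744 ± 175 and 2187 ± 170 CPM (0.33 ± 0.10, adjusted p = 0.0846) and Ywhag had a log2 fold change of 0.24 ± 0.07 (adjusted p = 0.0868, edgeR). Of 6 other Tead cofactors 4 were tested and 0 called, with 1 at an unadjusted p below 0.05 (18.2% of all tested genes). DESeq2 called 0 of these cofactors. Those with the lowest p were Vgll3 (0.27 ± 0.12, adjusted p = 0.236) and Ncoa2 (0.12 ± 0.07, adjusted p = 0.419, edgeR). Without animal 890 the log2 fold change of Vgll3 was 0.16. Vgll1 and Vgll2 had 0 counts in every library, which allows up to 0.312 CPM by library total in the shallowest.

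Of 21 listed YAP and TAZ target genes, 19 were tested, and 3 rose and 0 were called lower, beside 2.88% and 0.577% of all tested genes. The median log2 fold change of the 19 was 0.16, with 7 at an unadjusted p below 0.05 in edgeR (18.2% of all tested genes). DESeq2 called 1 of 16, Ccdc80, higher and 0 lower, beside 6.84% of all genes higher, and gave an adjusted p of 0.0799 for F3 and 0.0718 for Dock5. F3, the coagulation starter tissue factor, rose from 71.2 ± 11.8 to 118 ± 22.5 CPM (0.73 ± 0.13, adjusted p = 0.0120, edgeR). Its log2 difference was 1.28 in animal 890 and 0.37 in animal 899, and without animal 890 the log2 fold change was 0.46 (adjusted p = 0.000416, edgeR). Dock5, an exchange factor for Rac, rose from 26.6 ± 1.89 to 35.0 ± 1.38 CPM (0.40 ± 0.10, adjusted p = 0.0452, edgeR). Ccdc80, a secreted matrix protein, rose from 29.0 ± 6.60 to 46.8 ± 19.5 CPM (0.65 ± 0.13, adjusted p = 0.0188, edgeR), and its ranges overlapped. Without animal 892 the adjusted p was 0.170 for Ccdc80 and 0.204 for Dock5, and without animal 899 it was 0.0710 for Dock5 (edgeR). Cyr61 and Ctgf, commonly used readouts of YAP activity, are named here after their values were seen. Cyr61 had a log2 fold change of −0.30 ± 0.14 (adjusted p = 0.272) and Ctgf one of −0.14 ± 0.22 (adjusted p = 0.787, edgeR), and both had animals on either side of 0. With animal 890, 892 or 899 left out, the log2 fold change of Cyr61 was −0.33, −0.03 and −0.53, with adjusted p-values of 0.193, 0.974 and 0.00176 (edgeR).

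**Figure D5:**
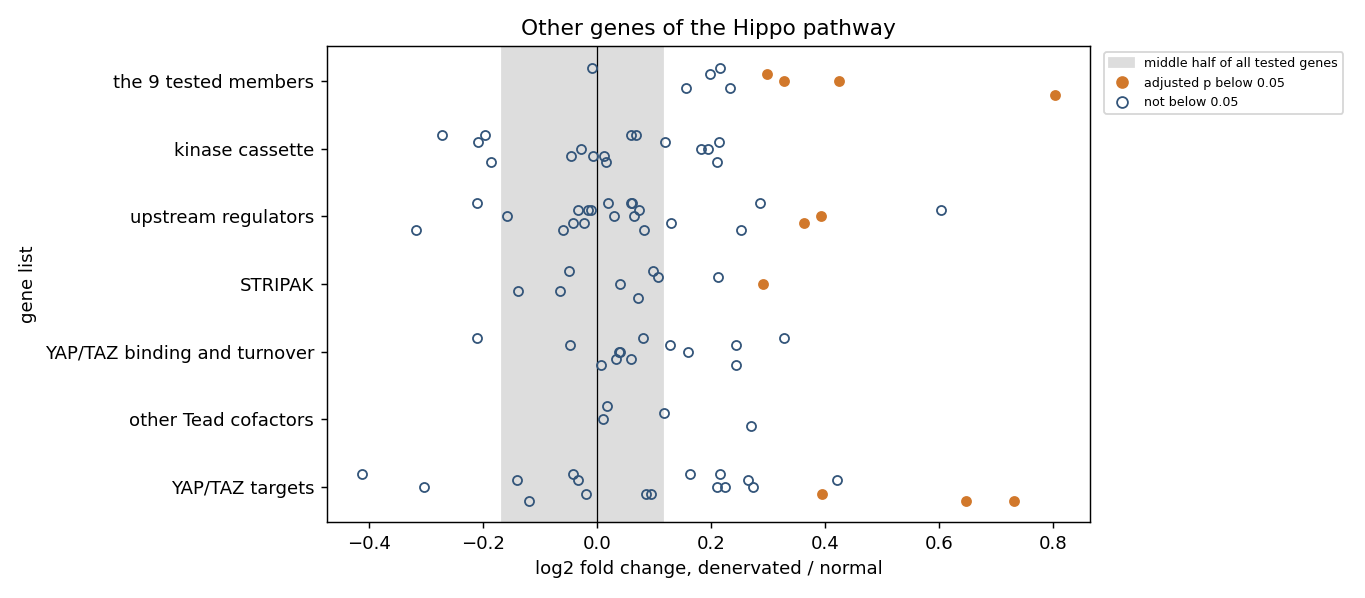
Log2 fold change, denervated over normal, of the 9 tested members (top) and of the tested genes in each other list of the pathway; each point is a gene, filled orange where the adjusted p was below 0.05, and the grey band holds the middle of all tested genes (−0.17 to 0.12). The called genes, all higher, are, beside the 4 members, Rassf1, Mpp5, Strn3, F3, Ccdc80 and Dock5, and most other points lie in or near the band.

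The profile of Yap1 over the 6 libraries was close to those of Gna11 and Mllt6. Likeness was the root mean square difference of log2 CPM after centring each gene on its mean, over the 6 libraries and among 8741 genes with a mean of at least 10 CPM. It was 0.0129 for Gna11, a G protein alpha subunit, and 0.0218 for Mllt6, the smallest values. By the same measure the nearest member to Yap1 was Lats2 at 0.118 and the farthest Tead4 at 0.488.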

How the data were processed

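Poly(A) RNA of 6 libraries was analysed, 3 per side. STAR 2.6.1a, Salmon 0.11.2 and the build mm10 are listed, without their roles, in the submitters' processing notes. Which annotation, counter and strand setting made the count matrix is not given in these sources. The authors deposited raw counts per gene for 24982 entries. Per the file headers, the per-library files hold estimated counts (rounded for an alternative), TPM and lengths. A deposited table gives the authors' log2 fold changes, p-values, test score (fold change over its error) and mean normalised signal. In the count matrix 26 entries have date-like names; these were kept in totals and tests but never named.

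Sample titles gave the side and the animal number, and no label names a sequencing batch. Per the labels' protocols both sides come from the same mouse, which pairs the libraries: deviations from group means correlated across genes at 0.356, 0.361 and 0.443 within animals and at −0.278 to −0.0407 between them. 

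The members and gene lists were chosen with earlier results of these data known. Denervated was tested against normal with edgeR 4.0.16 (R 4.3.3), quasi-likelihood, animal as block, TMM, filterByExpr (minimum count 10, minimum total 15; 12310 genes kept) and Benjamini-Hochberg adjustment over all tested genes. The biological coefficient of variation was 0.092. Each SE was obtained by dividing the absolute log2 fold change by √F. The test was run on simulated data first. Levels, shares and ratios come without a test. Named genes are the members and, per list, those that passed (at most 6, by p) or the 2 with the smallest p; the 3 genes most like Yap1 were also to be named. Some genes that these rules pick are not reported here and are left out of the list counts. The alternatives were no block, each animal left out, size factors, library totals, other filters, estimated counts, an adjusted p below 0.1, DESeq2 1.42.0, and limma 3.58.1 applied to log2(TPM + 1) or log2(TPM + 0.1), with a mean TPM of at least 1 or no filter; a pseudocount understates changes of low genes. Tead shares were also taken from counts per length. Positions are from GENCODE vM21, promoters from RefSeq (GRCm38.p6).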

Additional observations from a re-analysis of the deposited data

How the results depend on the processing

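Without the replicate block, edgeR called 0 genes (1537 at an unadjusted p below 0.05, smallest adjusted p 0.137), and 0 members (7 at an unadjusted p below 0.05), 0 other pathway genes (8) and 0 YAP and TAZ targets (5), against 426, 4, 3 and 3 with it. With 1 animal left out these 4 counts ran from 248 to 976, 1 to 4, 1 to 10 and 2 to 5; the lowest genome-wide and member counts came without animal 892, and the highest genome-wide count came without animal 899. In all 3 limma settings 1 gene, 0 members, 0 other pathway genes and 0 targets were called. Library totals gave 1 member (Tead4, adjusted p = 0.0424) and 0 other pathway genes (13 at an unadjusted p below 0.05); with them the adjusted p was 0.0918 for Wwtr1, 0.0802 for Tead1 and 0.0614 for Wwc1. Without a filter, which tests more genes, 987 genes were called, 692 higher and 295 lower. Among them were 7 other pathway genes, all higher, and 6 targets, 4 higher and 2 lower. Without animal 899, 671 genes were called higher and 305 lower, as were 9 and 1 other pathway genes and 3 and 2 targets. Cyr61 was among the lower targets in both settings. At an adjusted p below 0.1, 820 genes and 6 other pathway genes passed. DESeq2 called 7 other pathway genes and 1 target, and gave no adjusted p for Tead4. The log2 fold change of Yap1 ran from −0.0526 to 0.0708 with 1 animal left out, and was 0.0015 with DESeq2 size factors and 0.00034 with DESeq2; that of Ctgf ran from −0.54 to 0.33 with 1 animal left out. From raw counts per mean length, the share of Tead1 was 21.2% (normal) and 21.7% (denervated) and that of Tead3 72.7% and 69.8%. Apart from Yap1, the 8 other tested members kept their direction under every alternative that gave a value. For the changes with other settings the cause was not tested. Depth limits Tead2, whose log2 fold change was −0.33 in edgeR without a filter (adjusted p = 0.946), −0.65 in DESeq2 (no adjusted p) and −0.05 in limma without a filter (adjusted p = 0.921).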
